A study of Mus musculus with 8 samples.

Results

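The S phase and mitosis genes are 36 genes whose RNA is made when a cell copies its DNA and divides, chosen by name from the known cell cycle genes and all found among the 55414 genes of the table. They were read as 13 replication genes, which license, prime and feed DNA synthesis, and 23 mitosis genes, which drive entry into mitosis, attach chromosomes to the spindle and separate the daughter cells. All 36 passed the filter on low counts and were among the 15371 genes tested. The libraries were bulk RNA from wound-bed skin cells of mice, taken with anti-F4/80 beads as macrophages at day 1 (3 libraries, a to c) and day 3 (5 libraries, a to e) after injury, and each library pooled 6 wounds of 3 mice. Beyond the day the labels give no genotype, strain, age, sex or further treatment. Whether pools share mice is not stated, and the p-values reflect only how far the pools varied.

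A cell that commits to division passes from G1 into S phase, when E2F factors switch on the genes of the replication machinery, and then through G2 into mitosis, when the MuvB complex with B-MYB and FOXM1 switches on the mitosis genes. Related Mcm proteins form the ring that unwinds DNA, Pcna clamps the polymerase onto it, and ribonucleotide reductase and thymidylate synthase supply its building blocks. Cyclin B with Cdk1 then starts mitosis, and Plk1 and the Aurora kinases guide the spindle. Wound macrophages come largely from blood monocytes, and in several tissues macrophages also divide locally. The comparison set day 3 against day 1, and replication against mitosis, as a view of division at the wound.

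The 2 classes of members carry different motifs in their promoters. In the RefSeq promoter table (GRCm38.p6, 250 bases before to 50 bases after each gene start) 11 of 13 replication and 18 of 23 mitosis members had an entry. An E2F motif (TTTCCCGC or TTTCGCGC or TTTGCCGC or TTTGGCGC, either strand) lay in 5 of 11 replication and 1 of 18 mitosis promoters, beside 2.60% of all 27025 genes with a promoter. A CHR motif, the cell cycle homology region that MuvB binds (TTTGAA or TTCGAA, either strand), lay in 2 of 11 replication and 14 of 18 mitosis promoters, beside 21.7% of all. With only the bases before the start searched, the E2F motif lay in 3 of 11 replication promoters (2.16% of all) and the CHR in 9 of 18 mitosis promoters (19.6% of all). The CCAAT box (CCAAT, either strand) lay in 9 of 11 and 16 of 18, beside 41.1% of all. All 14 mitosis promoters with a CHR also held a CCAAT box, a pairing found in 8.61% of all genes. Among the promoters of tested genes alone, 4.43% held the E2F motif and 17.5% the CHR. Other genes of the same 2 processes, taken from lists of 60 and 71 symbols, gave the E2F motif in 17 of 46 replication and 6 of 61 mitosis promoters. The CHR lay in 11 of 46 and 44 of 61 of them. A match is a description of the letters and not a bound site.

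The promoters of 5 members show both patterns, each printed 5′ to 3′ on the strand of its gene and ending at the base before the gene start. Mki67 (chr7:135716380-135716539, minus strand), Cdc20 (chr4:118437344-118437503, minus strand) and Cdk1 (chr10:69352913-69353072, minus strand) are mitosis members. Mcm6 (chr1:128359706-128359865, minus strand) and Mcm5 (chr8:75109349-75109508, plus strand) are replication members, and coordinates are those of GRCm38.p6. Capitals mark the CHR in Mki67 and Cdc20, the E2F motif and then both CHR matches in Cdk1, and the E2F motifs in Mcm6 and Mcm5, where 2 matches on opposite strands overlap in each gene.
Mki67: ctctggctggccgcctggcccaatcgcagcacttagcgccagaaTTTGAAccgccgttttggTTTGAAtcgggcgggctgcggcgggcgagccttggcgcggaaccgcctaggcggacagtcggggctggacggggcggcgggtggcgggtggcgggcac
Cdc20: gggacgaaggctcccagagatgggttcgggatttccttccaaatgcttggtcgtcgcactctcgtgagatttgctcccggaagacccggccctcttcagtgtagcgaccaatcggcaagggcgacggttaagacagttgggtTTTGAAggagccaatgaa
Cdk1: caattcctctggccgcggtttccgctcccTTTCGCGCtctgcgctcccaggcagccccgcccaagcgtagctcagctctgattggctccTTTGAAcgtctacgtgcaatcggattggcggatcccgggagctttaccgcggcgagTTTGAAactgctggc
Mcm6: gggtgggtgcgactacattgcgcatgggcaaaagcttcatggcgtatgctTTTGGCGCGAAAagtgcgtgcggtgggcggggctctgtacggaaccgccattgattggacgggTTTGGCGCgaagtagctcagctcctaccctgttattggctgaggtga
Mcm5: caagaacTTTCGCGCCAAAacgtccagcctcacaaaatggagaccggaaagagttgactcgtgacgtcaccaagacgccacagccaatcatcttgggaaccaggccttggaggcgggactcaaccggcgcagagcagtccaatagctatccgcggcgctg
In Mki67 the CHR matches began 116 and 98 bases before the start, in Cdc20 18 bases before it, and in Mcm6 E2F matches began 110 and 47 bases before it, the first overlapped by a match on the other strand.

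Before the values, 3 facts about the libraries bear on low genes. Total counts ran from 41566151 to 60289310, and a count of 3, taken as the floor, was worth 0.0501 to 0.0755 normalised CPM (counts scaled to a common library size after TMM scaling, which evens out library composition), for counting error only. Between 73.0% and 86.0% of counts from 2 to 20 were even, and the recorded counting command set no option to count read pairs as 1. Reads over 2028 chemosensory receptor genes, which skin macrophages are not known to use, were found for 631 to 1031 of these genes at day 1, for 494 in day 3 a and for 21 to 66 in day 3 b to e. Their mean density was 0.0905 CPM per kilobase of exon in day 1 a, and 16 of the 36 members lay at or under that density there. The matching number was 5 members in day 1 b, 0 in day 1 c and 0 to 7 in the day 3 libraries. The part of this background in the members' values was not tested.

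None of the 36 members passed the test between the days. With edgeR's quasi-likelihood test and Benjamini-Hochberg adjustment over all genes tested, 0 members were higher and 0 lower at an adjusted p under 0.05, and the background was 0.0130% of the genes tested (2 genes). At an unadjusted p under 0.05 there were also 0 of 36 members, where 15.7% of all genes passed. Without day 1 c there were 4 such members (Mcm4, Ccnb1, Prc1 and Stmn1) and without day 1 b 1 (Rrm2), none of them with an adjusted p under 0.05. The lowest adjusted p of any member was 0.339. DESeq2 and limma voom called 0 members too, against 6.77% and 5.37% of all genes, with Stmn1 alone (DESeq2) and Ttk alone (voom) at an unadjusted p under 0.05. The day ranges overlapped for every member, whereas they did not overlap for 14.1% of the genes tested. The share of genes with an unadjusted p under 0.05 depends on level: it was 6.23% among genes with a mean of 1 to 3 CPM and 6.96% from 3 to 10 CPM, where 27 of the 36 members lay.

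The replication genes had a median log2 fold change (day 3 minus day 1) of -0.36, with 5 above 0 and 8 below, and the mitosis genes one of -0.031, with 11 above and 12 below. The median over all genes tested was -0.17. The replication median was 0.25 without day 1 a and 0.24 with voom. The mitosis median was -0.39 without day 1 c, 0.47 without day 1 b and 0.29 with the stricter filter described next, so neither sign was stable. With a stricter filter (no library of 1 of the days under 1 CPM, and a mean of 5 CPM or more) 8 replication and 6 mitosis members were left, and 0 were called, against 1.79% of 8142 genes.

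**Figure D1:**
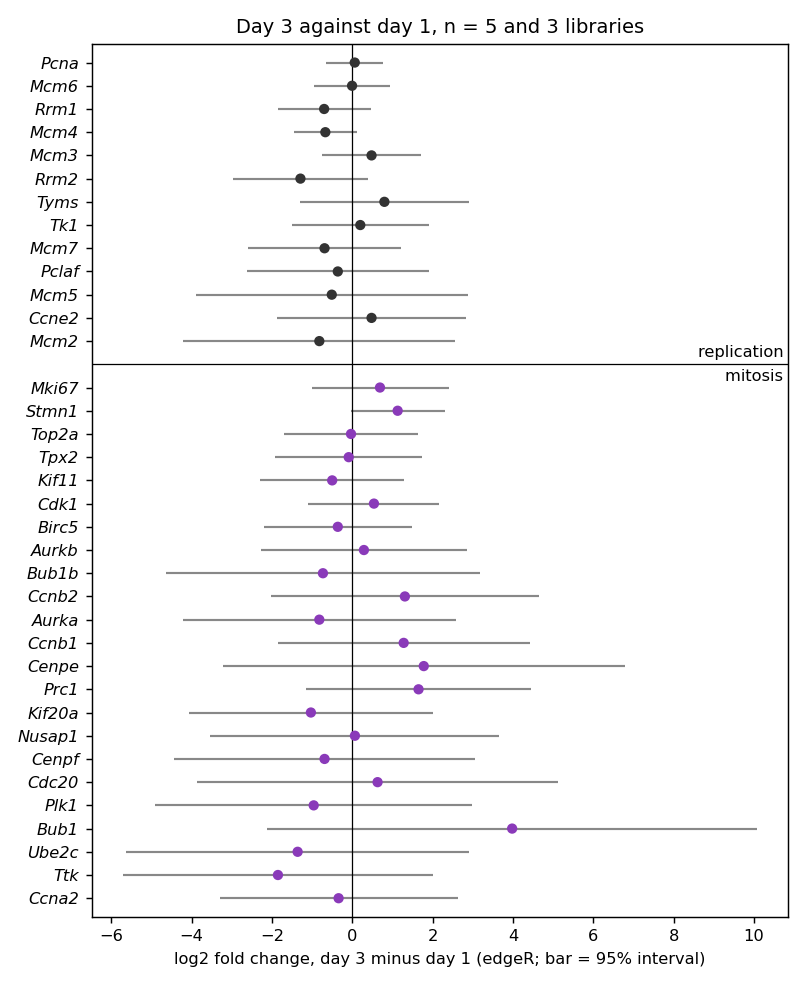
Fitted log2 fold change, day 3 minus day 1 (edgeR, n = 5 and 3 libraries), of the 13 replication and 23 mitosis members, with bars for the 95% interval of each. Each interval spans 0, and those of Pcna (-0.65 to 0.77), Mcm4 and Mcm6 are narrower than those of low genes such as Bub1.

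Pcna, the sliding clamp of DNA polymerase, was the most abundant member per length, at a mean of 43.2 CPM per kilobase, above 92.6% of the genes tested. It (ENSMUSG00000027342, GRCm39 chromosome 2, 132091082 to 132095234) had 160, 91.5 and 51.7 normalised CPM in the day 1 libraries a to c and 130, 112, 89.4, 105 and 91.2 in day 3 a to e. All 5 day 3 values lay between the day 1 extremes. Means of 101 ± 54.6 and 105 ± 16.6 CPM (SD, n = 3 and 5) gave a log2 difference of 0.062 ± 0.32 (SE; 95% interval -0.65 to 0.77; edgeR adjusted p = 0.954). Without day 1 a it was 0.55 and without day 1 c -0.25. Pcna also serves DNA repair and is transcribed outside S phase, and it made up 31.2% to 54.8% of the summed CPM of the replication genes in each library.

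The Mcm genes encode the subunits of 1 ring, which holds each of the 6 proteins once, yet their RNA lay at unlike levels per length. The length was that of all annotated exon bases of a gene, 3589 for Mcm4 and 6956 for Mcm2, which may exceed the length of 1 transcript. Mcm6 and Mcm4 led, with means of 8.41 and 6.66 CPM per kilobase, ahead of Mcm3 at 3.78 and Mcm7 at 1.01, and Mcm5 and Mcm2 were at 0.832 and 0.414. One of Mcm4 and Mcm6 was the highest in 7 of 8 libraries, and they took both top places in 6. In day 3 d Mcm3 led, at 7.78 CPM per kilobase. Mcm6 (chromosome 1, 128259327 to 128287401) had 58.8, 42.5 and 16.7 CPM at day 1 and 55.9, 21.8, 47.0, 33.5 and 37.9 at day 3, a log2 fold change of -0.0051 ± 0.42 (95% interval -0.94 to 0.93). Mcm4 (chromosome 16, 15441761 to 15455264) had 31.6, 42.2 and 19.6 CPM at day 1 and 21.3, 23.4, 21.8, 10 and 21.2 at day 3. Its day 3 values all lay under the day 1 mean of 31.1, with a log2 fold change of -0.67 ± 0.35 and an edgeR adjusted p of 0.405.

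Mcm3 had 8.16, 10.5 and 15.5 CPM at day 1 and 4.63, 12.1, 18.8, 29.2 and 14.6 at day 3 (0.48 ± 0.55), so the lowest and the highest value both came from day 3. Mcm2 and Mcm5 were close to absent from single libraries. Mcm2 had 0, 4.24 and 7.61 CPM at day 1 and 4.18, 0.203, 0.669, 2.51 and 3.62 at day 3, and its log2 fold change of -0.82 ± 1.51 went to 0.077 without day 1 c. Mcm5 had 0.151, 4.70 and 7.39 CPM at day 1 and 0 in day 3 b, with 1.86 to 6.18 in the other day 3 libraries. Both genes were thus lowest in day 1 a at day 1, where Mcm7 was at its highest, with 13.2 CPM against 0.851 to 5.39 in the other 7 libraries. Mcm7 shares 321 exon bases with Ap4m1 and 64 with the abundant Cops6 on the opposite strand, and without strand such reads cannot be told apart.

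For each of the genes of nucleotide supply, day 1 a held the highest or the lowest value of day 1. It stood far apart from day 1 b and c for Rrm2, whereas Rrm1 fell stepwise from a to c. Rrm2, the S phase subunit of ribonucleotide reductase, had 30.8, 3.37 and 4.11 CPM at day 1 and 6.95, 4.03, 3.15, 6.57 and 5.41 at day 3. Its day 1 mean of 12.8 ± 15.6 CPM thus came from 1 library, and the log2 fold change of -1.29 ± 0.75 became 0.46 without it. Rrm1, the large subunit, which is also made outside S phase, had 45.7, 31.0 and 19.4 CPM at day 1 and 27.0, 10.2, 26.6, 28.8 and 6.18 at day 3 (-0.70 ± 0.52). Tyms, thymidylate synthase, went the other way in day 1 a: it had 0.252 CPM there, 4.29 and 8.87 in day 1 b and c, and 2.58 to 9.76 at day 3 (0.80 ± 0.94). Tk1, thymidine kinase, had 11 CPM in day 1 a and 1.97 and 4.19 in b and c, within a day 3 range of 1.75 to 10.7 except for day 1 a just above it. Ccne2, the cyclin that starts S phase with Cdk2, ran from 0.252 to 3.80 CPM at day 1 and from 0.925 to 5.27 at day 3. Pclaf, a Pcna partner, ran from 1.84 to 6.90 and from 0.610 to 8.94 CPM.

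**Figure D2:**
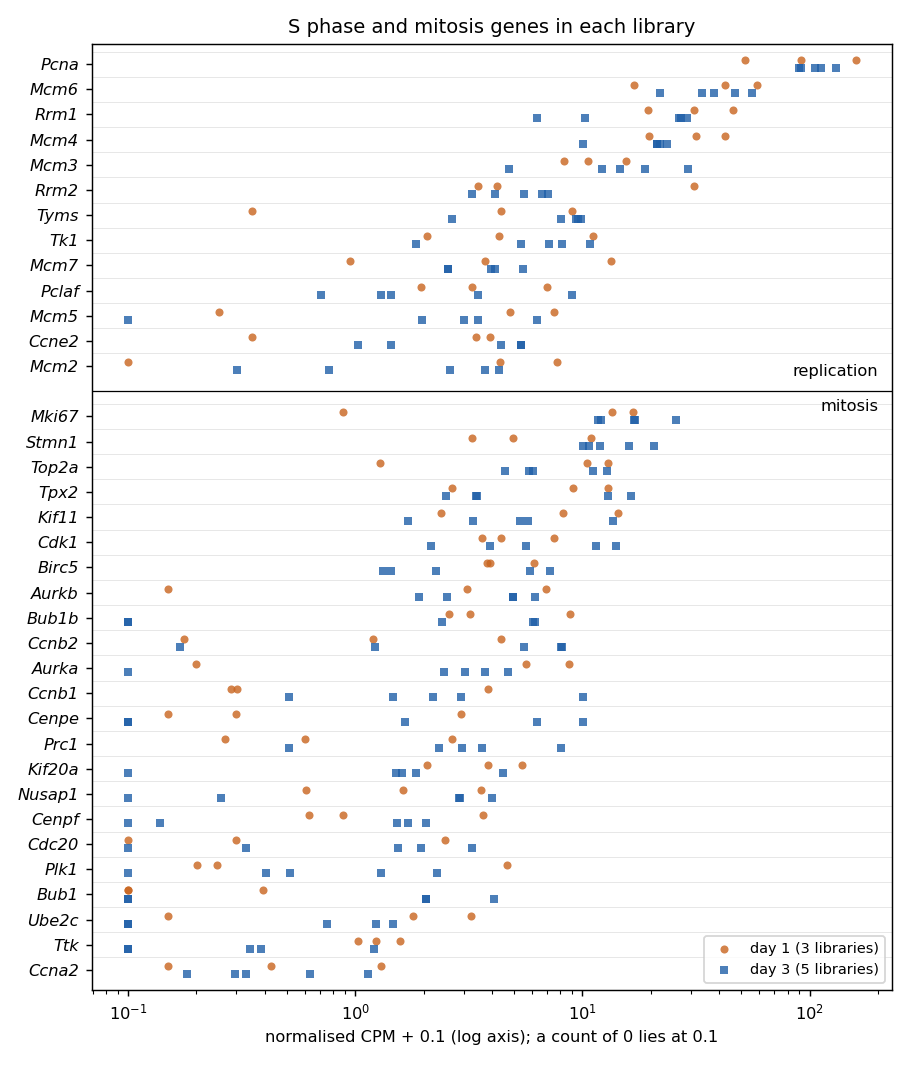
Normalised CPM of each member in each library, with 0.1 added so that a count of 0 can be drawn on the log axis; circles are the 3 day 1 libraries and squares the 5 day 3 libraries. The days overlap for every gene, and most mitosis genes reach from near the floor to several CPM within a single day.

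Mki67, the standard RNA and protein marker of cycling cells, was detected in all 8 libraries at a modest level. It (ENSMUSG00000031004, chromosome 7, 135291513 to 135318090) had 0.780, 13.4 and 16.6 CPM in the day 1 libraries a to c and 12, 25.7, 16.7, 11.6 and 16.9 in day 3 a to e. Day 1 a stood far under the others, and day 1 b and c lay inside the day 3 range. Means of 10.2 ± 8.36 and 16.6 ± 5.67 CPM (SD, n = 3 and 5) gave a log2 difference of 0.69 ± 0.76 (95% interval -1.01 to 2.40; edgeR adjusted p = 0.737), and 0.11 without day 1 a. Per length it was at 1.41 CPM per kilobase, above 47.4% of the genes tested. In these bulk libraries fewer cycling cells and less RNA per cell cannot be told apart.

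Top2a, the topoisomerase that untangles sister chromosomes, followed Mki67 in being low in day 1 a. It had 1.18, 12.9 and 10.4 CPM at day 1 and 12.7, 4.47, 5.98, 5.71 and 11 at day 3 (-0.031 ± 0.74; 95% interval -1.69 to 1.63). Unlike Mki67, however, its second lowest value was in day 3 b, where Mki67 was highest. Stmn1, a microtubule-destabilising protein of dividing and of some resting cells, had the lowest p of the members by edgeR. It (chromosome 4, 134195631 to 134201154) had 3.17, 4.86 and 10.8 CPM at day 1 and 10.6, 20.5, 15.9, 9.94 and 11.8 at day 3. Only day 1 c reached into the day 3 range. The log2 fold change was 1.13 ± 0.52 (95% interval -0.040 to 2.30), with an unadjusted p of 0.0569 and an adjusted p of 0.339 by edgeR, and the adjusted p ran from 0.125 to 0.516 with 1 library left out.

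Cyclin B and Cdk1, the kinase that starts mitosis, did not share a pattern. Cdk1 (chromosome 10, 69170976 to 69188768) had 7.40, 4.30 and 3.51 CPM at day 1 and 11.4, 3.82, 14.0, 5.52 and 2.06 at day 3 (0.54 ± 0.73). Ccnb1 had 0.201, 0.184 and 3.75 CPM at day 1 and 2.81, 2.11, 10, 0.413 and 1.37 at day 3 (1.28 ± 1.40). Ccnb2 had 0.0755, 1.10 and 4.30 CPM at day 1 and 7.94, 5.41, 8.07, 0.0688 and 1.12 at day 3 (1.31 ± 1.49). All 3 were highest in day 3 c, but in day 3 d Ccnb2 was near the floor while Cdk1 was at 5.52 CPM. The log2 fold changes of Ccnb1 and Ccnb2 were 4.10 and 2.93 without day 1 c, and that of Ccnb1 was 0.28 without day 3 c. Ccna2, the cyclin of S phase and G2, was the member with the lowest peak, at most 1.2 CPM in any library, and 510 of its 4083 exon bases are shared with the opposite-strand gene Exosc9.

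The spindle and kinetochore genes were uneven from library to library. Tpx2, which activates Aurora A on the spindle, had 12.8, 8.98 and 2.57 CPM at day 1 and 16.3, 3.29, 2.40, 12.9 and 3.35 at day 3 (-0.088 ± 0.82). Aurka, its kinase, had 8.66, 0.10 and 5.55 CPM at day 1 and 4.59, 2.93, 0, 2.37 and 3.62 at day 3. Both were at their lowest in day 3 c, whereas in day 1 b Aurka was at 0.10 CPM and Tpx2 at 8.98. Aurkb and Birc5, 2 parts of the chromosomal passenger complex, likewise parted in day 1 a, with 0.0503 and 3.83 CPM. The motor genes Kif11 (1.6 to 14.3 CPM over the 8 libraries) and Kif20a (0 to 5.34) and the cytokinesis gene Prc1 (0.167 to 7.93) spanned similar ranges.

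Cenpe, a kinetochore motor, had 0.0503, 0.20 and 2.82 CPM at day 1 and 0, 0, 6.18, 9.94 and 1.56 at day 3, so it was absent from 2 day 3 libraries and above 5 CPM in 2 others. Bub1b, a checkpoint kinase, had 3.10, 8.74 and 2.48 CPM at day 1 and 5.96, 0, 6.10, 0 and 2.31 at day 3. Its relative Bub1 was at or under the floor in 4 of 8 libraries and reached 3.97 CPM in day 3 d, where Bub1b was at 0. The log2 fold change of Bub1, 3.98 ± 2.72, had the widest interval of the members, -2.12 to 10.07. Cdc20 and Ube2c, which act in the destruction of cyclin B, peaked at 3.17 and 3.13 CPM, and Plk1, the kinase of mitotic entry, was at 4.55 CPM in day 1 b and at most 2.18 in any other library. Nusap1 ran from 0 to 3.90, Cenpf from 0 to 3.55 and Ttk from 0 to 1.48 CPM.

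Within each library the replication genes stood above the mitosis genes. The median level per length was 2.17, 1.18 and 1.48 CPM per kilobase for replication in day 1 a, b and c, and 1.55, 1.45, 1.30, 1.54 and 1.55 in day 3 a to e. For mitosis it was 0.0776, 0.719 and 0.579 at day 1, and 0.697, 0.501, 0.664, 0.634 and 0.429 at day 3. Replication was higher in 8 of 8 libraries, and the mitosis median was 0.0357 to 0.610 of it at day 1 and 0.277 to 0.511 at day 3. The days thus overlapped in the ratio, and day 1 a held its lowest value. A separate measure was the mean log2 CPM of each class, which was not divided by length. By it the mitosis genes lay 2.28 ± 0.45 below the replication genes at day 1 and 2.27 ± 0.27 below them at day 3 (SD, n = 3 and 5). No p is given for these summaries, since the members were chosen with earlier results of these data known.

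**Figure D3:**
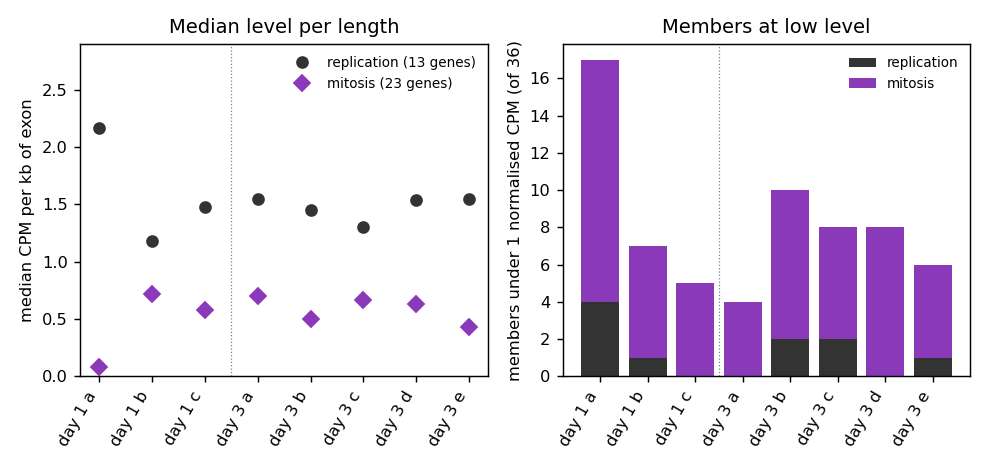
Left, median CPM per kilobase of exon of the 13 replication and 23 mitosis genes in each library; right, the number of the 36 members under 1 normalised CPM. Replication lies above mitosis in all 8 libraries, and day 1 a has 17 members under 1 CPM against 4 to 10 in the others.

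Set against the genes tested, 9 of the 36 members lay above the median level per length, 6 of the replication and 3 of the mitosis genes. The 3 were Stmn1 (71.0% of tested genes below it), Ccnb2 (56.0%) and Tpx2 (50.2%). The median member stood above 39.3% of the tested genes, a median replication gene above 44.5% and a median mitosis gene above 32.5%. Cenpf, Ccna2 and Ttk were the lowest members, above 5.76%, 8.59% and 9.99%. Ranks per length depend in part on the annotated exon bases of each gene.

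Pairs of members showed little shared movement from library to library. After the mean of each day was removed, the median Pearson correlation over the 8 libraries was 0.10 among the 253 pairs of mitosis genes and -0.060 among the 78 pairs of replication genes. It was 0.021 between the classes and 0.0052 over all pairs of the 11849 tested genes in the same range of level. A correlation above 0.5 was found in 16.2% of mitosis pairs and 15.3% of all pairs. These values are a description, since all pairs share the same libraries and their depth.

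From 1 CPM upward the median spread of the members lay somewhat above that of all genes of like level. The gap was widest from 3 to 10 CPM and for Mcm6, and small elsewhere. Above 30 CPM Mcm6 and Pcna were the only members. Among genes with a mean of 3 to 10 CPM, the coefficient of variation over the 5 day 3 libraries had a median of 66.6% for 16 members, 10 of them above the 53.8% that was the median of all 2585 genes. From 1 to 3 CPM it was 96.4% for 11 members (6 above the median) and 92.7% for all 2328, and from 10 to 30 CPM 34.2% for 5 members (4 above) and 31.7% for all 2623. Mcm6 had 33.2%, above the upper quartile of 27.9% for genes of 30 to 100 CPM (median 20.7%), and Pcna 15.7% against a median of 15.1% at its level. The 2 members under 1 CPM had a median of 116% against 138%. A gene at or under the floor in 1 library and at 5 CPM or more in another of the same day was no rarity: it held for Mcm2 and Cenpe (18.2% of members from 1 to 3 CPM, against 20.1% of genes). It held also for Mcm5, Bub1b and Aurkb (18.8% of members from 3 to 10 CPM, against 19.4% of genes).

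**Figure D4:**
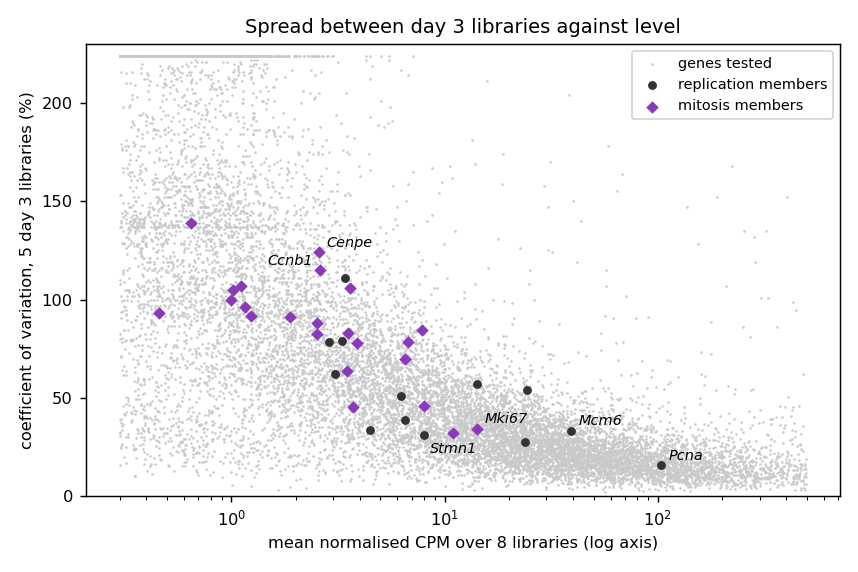
Coefficient of variation of normalised CPM over the 5 day 3 libraries against the mean over all 8 libraries (log axis) for the genes tested (grey) and the members (black circles, replication; purple diamonds, mitosis). The members lie within the grey cloud, with Pcna and Mcm6 at the well-measured end.

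Other genes of the 2 processes also gave no call by edgeR. Of 57 further replication genes that passed the filter (60 measured), edgeR called 0 higher and 0 lower, and of 65 further mitosis genes (69 measured) also 0 and 0. Genes with an unadjusted p under 0.05 numbered 6 and 4, 10.5% and 6.15% against 15.7% of all genes. The genes called by DESeq2 included Gins1 (higher) and Mybl2 (lower), and voom called Mybl2, Ung and Kif14 lower. Gins1, Ung and Kif14 are named for these calls, after their values were seen. The median log2 fold changes were 0.023 and -0.11.

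Mybl2, which encodes the B-MYB factor of the MuvB complex, had the lowest p of these genes. It had 67, 230 and 50 counts in day 1 a to c (1.69, 3.84 and 0.910 CPM), and 0 in each day 3 library but b, which had 2. By edgeR its adjusted p was 0.0829, and by DESeq2 and voom 0.00112 and 0.0112. Orc1, Ung and Kif14, chosen after their values were seen, were likewise at or under the floor in 4 of 5 day 3 libraries and between 0.364 and 6.22 CPM at day 1, the day with more reads over chemosensory genes. The part of that background in these 4 genes was not tested.

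Among better measured genes, the licensing factor gene Cdt1 had 45.1, 40.7 and 26.6 CPM at day 1 and 6.91 to 24.8 at day 3 (-1.14 ± 0.41; edgeR adjusted p = 0.207). Atad2, a chromatin factor of S phase, had 2.67, 12.1 and 4.86 CPM at day 1 and 13 to 21.2 at day 3 (1.44 ± 0.52; edgeR adjusted p = 0.205). Cks2, a Cdk1 subunit, had 6.75 to 11.9 CPM at day 1 and 14.2 to 35.5 at day 3 (1.17 ± 0.44; edgeR adjusted p = 0.235), and the nuclear lamin gene Lmnb1 had 284 to 361 and 96.4 to 332 CPM (-0.92 ± 0.36; edgeR adjusted p = 0.250). The values of Cdt1, Atad2 and Cks2 did not overlap between the days, with Cdt1 lower and Atad2 and Cks2 higher at day 3. Among further genes the days did not overlap for 6 of 57 replication and 4 of 65 mitosis genes, against 14.1% of genes tested. Asf1b, a histone chaperone chosen after its values were seen, had 0.227, 8.58 and 7.75 CPM at day 1 and the narrow range of 17.0 to 19.4 at day 3 (1.69 ± 0.85; edgeR adjusted p = 0.380).

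Markers of the selected and of other cell types were read beside these values. The 12 macrophage identity genes summed to 25154 to 30958 CPM at day 1 and 36188 to 46144 at day 3, led by Lyz2. Adgre1, which encodes F4/80, was at 689 to 940 and 994 to 1181 CPM, so the labelled cell type was present in all libraries. Lyz2 alone had 6717 to 9897 CPM at day 1 and 15661 to 23432 at day 3, and the sum was not taken without it. C1qb and C1qc were also higher at day 3 without overlap. Fcgr1 went the other way, with 717 to 979 CPM at day 1 and 344 to 488 at day 3. The days overlapped for the other genes of the list. The 10 inflammatory monocyte genes, led by Thbs1, summed to 6695 to 8551 and 3574 to 4785 CPM. The 12 neutrophil genes, led by S100a8, summed to 850, 2260 and 3925 CPM at day 1, to 3776 in day 3 b and to 451 to 682 in the other day 3 libraries. Granulocyte and monocyte precursor genes, 8 markers of cells that divide in marrow, summed to 6.51 to 29.9 and 7.97 to 16.6 CPM, led by Prtn3. These 8 genes were not alike. Mpo was at 0.0667 CPM or less in every library, Ctsg at 0.0503, Ms4a3 at 0.0834 and Elane at 0.928 or less. Prtn3, by contrast, was at 1.06 CPM or more in every library. Flt3 and Kit reached 11.4 and 10.9 CPM in day 1 a, and Cd34 4.77 in day 3 d.

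Besides the macrophage and monocyte sums, those that did not overlap between the days were of 8 fibroblast genes (9.94 to 37.8 and 61.4 to 130 CPM, led by Col3a1) and 7 B and plasma cell genes (32.5 to 103 and 105 to 213 CPM, led by Ighm). The same held for 7 red cell genes (5.59 to 23.9 and 32.1 to 49.4 CPM, led by Tfrc, which cells of many types make) and 7 endothelial genes (31.2 to 78.1 and 17.3 to 29.9 CPM, led by Pecam1). Taken alone, Ighm (28.4 to 96.7 and 84.6 to 177 CPM) and Pecam1 (12.7 to 30.7 and 10.9 to 22.1 CPM) overlapped between the days. In the endothelial sum Kdr had 45.2, 11.5 and 4.31 CPM in day 1 a to c and 0.0407 to 7.16 at day 3. T and NK cell genes (5.32 to 27.4 and 10.2 to 13.8 CPM, led by Cd2) and keratinocyte genes (0.503 to 2.99 and 0.689 to 29.5 CPM, led by Krt14 in day 3 b) overlapped. Jchain and Ctsg were at or under the floor in every library. Day 3 b, with the most neutrophil and keratinocyte RNA of its day, had the highest Mki67, Stmn1, Nusap1 and Prc1 of all libraries. It also held the lowest value of Birc5, Plk1 and Kif20a, and was tied with other libraries at 0 CPM for Bub1, Bub1b, Ube2c and Cenpe. Day 3 b had the lowest mitosis mean of its day, -0.12 on the log2 CPM scale, with 6 mitosis members at or under the floor. Without it the log2 fold changes of Mki67 and Stmn1 were 0.48 and 0.94. Which cells the members' RNA came from was not tested.

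Some values are limited by shared sequence. In the annotation 12 members share exon bases with another gene, 5 of them over 10% of their length: Kif20a with Cdc23 (29.3%), Ube2c with Tnnc2 (22.8%), Ccne2 with Ints8 (17.4%), Ccna2 with Exosc9 (12.5%) and Prc1 with Rccd1 (11.1%), all on opposite strands. Pcna, Tyms, Ccnb1, Ccnb2 and Stmn1 have named copies in the genome, which were at a mean of at most 0.706 CPM on either day. How reads that match a gene and its copy equally were counted is not stated.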

How the data were processed

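RNA-seq was measured in 8 libraries. The authors deposited raw counts per gene; per the file headers they were made with featureCounts 1.6.0 on GRCm39 with Ensembl release 106, with no option for strand or read pairs, and gene length in exon bases is given beside them. Per the submitters' processing notes Trimmomatic and DESeq2 were also used; no source used here gives the aligner. Of 55414 genes, 52081 (94.0%) had a symbol in the reference name table, and 2 of 254 list symbols had no match. No column belonged to another sample and no row lacked a gene.

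Genes were kept with filterByExpr (minimum count 10), scaled by TMM and tested with edgeR 4.0.16 (quasi-likelihood F test, two-sided, day 3 minus day 1, Benjamini-Hochberg over all genes tested, threshold 0.05). Intervals of 95% used the fitted degrees of freedom. Alternatives were DESeq2 1.42.0, limma voom 3.58.1, RLE scaling, library totals, 2 other filters, halved counts, fits lacking 1 library each, and a replicate block on the shared letters. The fits were tested on simulated data. R was 4.3.3 and Python 3.11.15.

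Members and lists were chosen with earlier results of these data known. Values per library are given for called members, members with days apart, the 4 highest per length of each class, and Mki67, Top2a, Pcna, Mcm2, Ccnb1, Cdk1 and Stmn1. Further genes named are among the 3 with the lowest p of each list (1 is not reported here), and of each marker list the most abundant. Other members are given library by library where a sentence turns on them, chosen after their values were seen. Other marker genes were named in the same way.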

Additional observations from a re-analysis of the deposited data

Results flagged for a closer look

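In 4 of 38 values screened over the 5 day 3 libraries, 1 library lay farther from its nearest neighbour than Dixon's 95% limit for 5 values (0.71 of the range) allows. Chance marks about 1 in 20 such groups. Mcm4 was at 10 CPM in day 3 d and at 21.2 to 23.4 in the others, and Tyms at 2.58 CPM in day 3 d and at 7.91 to 9.76 in the others. Ccnb1 was at 10 CPM in day 3 c, above 0.413 to 2.81, and Ttk at 1.11 CPM in day 3 e, above 0 to 0.285. Both low values lie in the same library, in which Mcm3 was at its highest, with 29.2 CPM.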

How the results depend on the processing

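The count of called members was 0 in every setting tried: DESeq2, limma voom, RLE scaling, library totals, no filter, the stricter filter, halved counts, each library left out, and letters a to c. The count over all genes was 2, and 1041 with DESeq2, 825 with voom, 1347 with no filter, 146 with the stricter filter, 46 with halved counts and 0 to 59 with 1 library left out (0 without day 1 a or day 3 a, c, d or e, with 1976 to 2877 at an unadjusted p under 0.05; 59 without day 1 b). Further replication and mitosis genes gave 0 calls, but 3 with DESeq2, 3 with voom and 2 with no filter. The replication median of -0.36 was 0.24 with voom, 0.064 with the stricter filter (8 members left) and -0.52 to 0.25 with 1 library left out. The mitosis median of -0.031 was 0.29 with the stricter filter (6 members left) and -0.39 to 0.47 with 1 library left out. The CHR share of mitosis promoters, 77.8%, was 50% when only bases before the start were searched; the E2F share of replication promoters was 45.5% and 27.3%.

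Small fold changes turned sign. Mcm6, at -0.0051, was 0.16 with voom, 0.029 with library totals, 0.031 with no filter and with the stricter filter, 0.019 with halved counts and -0.36 to 0.40 with 1 library left out. Top2a was 0.19 and Mcm2 0.67 with voom. With 1 library left out Pcna ran from -0.25 to 0.55, Tpx2 from -0.56 to 0.42, Top2a from -0.55 to 0.47 and Mcm2 from -1.42 to 0.077. Of the 36 members, 19 changed sign in at least 1 such fit. The cause was not tested.

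The letters a to c are shared by the days, but same-letter libraries did not deviate together (r = 0.0697, 0.00779 and 0.0567) and the header lists partly other letters. On these 6 libraries edgeR called 0 genes without and 0 with the replicate block (1660 and 1343 at an unadjusted p under 0.05). Mcm6 was 0.11 without the replicate block and 0.16 with it, and Mcm3 -0.093 and Top2a 0.097 with it. Depth limits members under 1 CPM, where a count of 3 is worth 0.0501 to 0.0755 CPM.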
